A study of Mus musculus with 8 samples.

Results

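The potassium channel genes of the left ventricle were followed in mice lacking RE1, a regulatory element of the Nppa-Nppb locus, which encodes the natriuretic peptides ANP and BNP. Genes were taken by symbol: Kcn, further letters and a closing number, which takes in pore-forming subunits and the Kcnip, Kcne, Kcnab and Kcnmb accessory subunits. Of 41128 genes in the deposited count table, 92 matched, and the 61 with at least 20 raw counts summed over all libraries were kept. Kcnj10 and Kcna3 were just inside that minimum with 22 counts each, and Kcnh8 and Kcnh3 were just outside it with 16 each. The 61 genes comprise 25 voltage-gated, 11 inward rectifier, 8 two-pore, 7 calcium- or sodium-activated and 10 accessory subunit genes.

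The RE1-KO group held 4 libraries of mice homozygous for the RE1 deletion, and the WT group held 4 libraries of wild-type littermates. All were FVB mice of 8 to 12 weeks, and total RNA of left ventricular tissue was sequenced. The labels do not say whether each library is a separate animal, so p-values measure only the spread between these libraries. The name RE1 here is that of the deleted element and is unrelated to the RE1 motif bound by the repressor REST.

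Potassium channels carry the outward currents that end the cardiac action potential and hold the resting potential of the myocyte. In the mouse ventricle, Kcnd2 and Kcnd3 with the accessory subunit Kcnip2 carry the fast transient outward current, and Kcna5 carries part of the slowly inactivating delayed rectifier current. Kcnj2 and Kcnj12 carry the inward rectifier current that sets the resting potential, and Kcnj11 forms the ATP-sensitive channel of myocytes.

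Total counts were 16778368 to 37133306 per RE1-KO library and 20284865 to 34742840 per WT library. The targeted locus went with the labels: Nppb was at 1.04 to 11.0 normalized counts in RE1-KO, against 1840 to 4619 in WT, and Nppa was at 4.16 to 9.63 in RE1-KO, against 327 to 628 in WT. Summed atrial markers were 14.2 to 18.7 CPM (counts scaled to the library total) in RE1-KO and 15.5 to 18.0 CPM in WT. Some measures moved with the groups. Summed cardiomyocyte markers were 122436 to 126839 CPM in RE1-KO and 115743 to 122136 CPM in WT, without overlap. Each of these 10 markers leaned higher in RE1-KO, by a small amount (median log2 fold change 0.065), and 0 passed the test. An index of the circadian clock, the mean log2 CPM of Arntl, Npas2, Clock and Nfil3 less that of genes of the opposite phase such as Dbp, Per2 and Nr1d1, was -1.21 to -0.23 in RE1-KO and -3.43 to -1.64 in WT, without overlap. All 10 fibroblast markers had a positive log2 fold change and 2 passed the test, with a summed level of 1871 to 2066 CPM in RE1-KO and 1597 to 1900 CPM in WT. All 8 tested mesothelial markers also had a positive one and 0 passed. The 11 mesothelial markers found, tested or not, summed to 13.2 to 36.8 CPM in RE1-KO and 5.83 to 19.2 CPM in WT. Of 10 endothelial markers, 9 had a negative log2 fold change and 1 passed, with 740 to 882 CPM in RE1-KO and 837 to 928 CPM in WT. Within RE1-KO, replicates 1 and 3 resembled each other, as did replicates 2 and 4. The mean chi-square per gene was 2.98 and 3.36 in those pairs, against 13.0 to 14.7 in the other RE1-KO pairs and 4.61 to 11.9 in WT pairs. Mitochondrial rRNA was 9.40% and 9.01% of counts in RE1-KO replicates 1 and 3 and 6.40% and 6.19% in replicates 2 and 4. In WT it was 8.51 to 10.5%. The clock index was -1.21 and -1.13 in RE1-KO replicates 1 and 3 and -0.23 and -0.24 in replicates 2 and 4. The part of these differences in the values below was not tested. In bulk tissue, fewer cells of a type and less RNA per cell cannot be told apart.

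Expression of potassium channel genes was first set out per length, as TPM (raw counts scaled to exon length and library total). Together the 61 genes summed to 172 ± 6.17 TPM in RE1-KO and 177 ± 7.78 TPM in WT (SD, n = 4 each). Voltage-gated genes held 31.7% of that level over all libraries, inward rectifiers 29.8%, accessory subunits 22.9%, two-pore channels 13.3% and calcium- or sodium-activated channels 2.31%. The accessory share was nearly all Kcnip2, at 37.8 TPM over all 8 libraries, the highest level of any of the 61 genes. Next came the two-pore channel Kcnk3 at 20.5 TPM and the modifier subunit Kcng2 at 13.1 TPM. Kcnj11, Kcnj8, Kcnj5, Kcnd2 and Kcnj2 followed at 9.97, 9.68, 9.47, 9.02 and 8.78 TPM. In all, 21 of the 61 genes averaged at least 1 TPM. Among those 21, the coefficient of variation of the normalized counts between libraries had a median of 6.65% in RE1-KO and 5.76% in WT. It was highest for Kcna5 in RE1-KO, at 19.0%, and for Kcna1 in WT, at 29.8%.

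**Figure D1:**
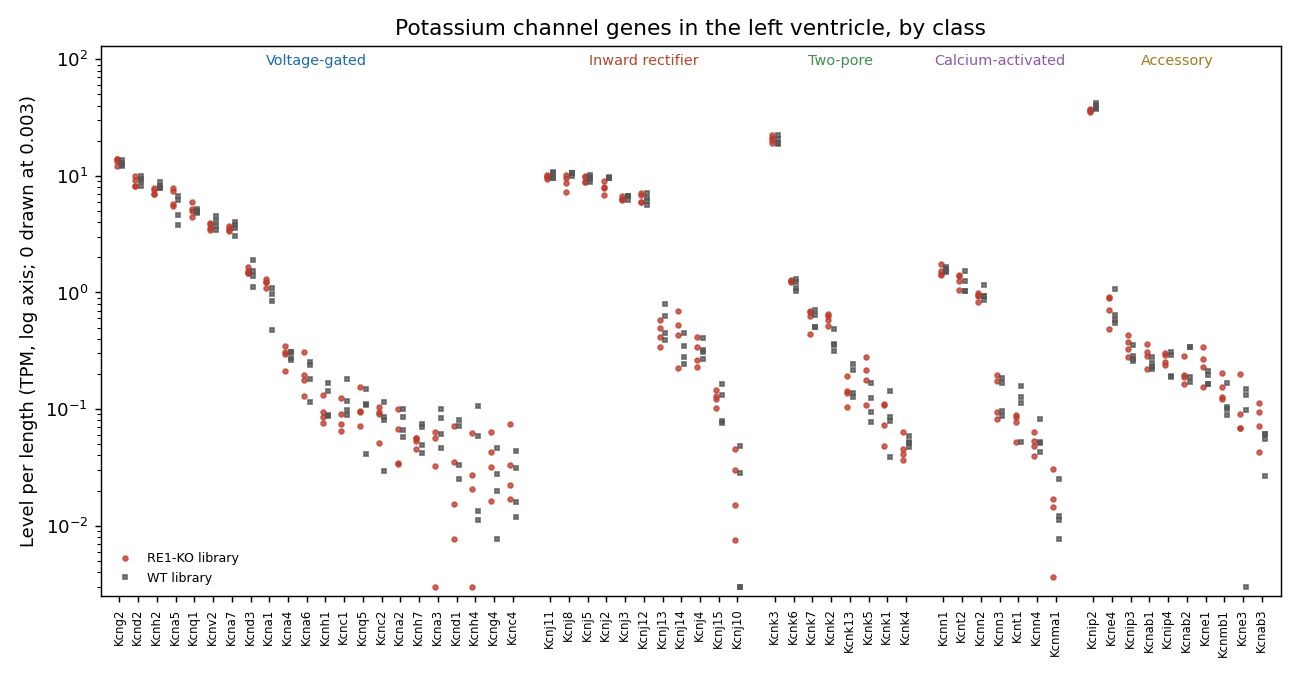
Level per length (TPM, log axis) of 58 potassium channel genes in each library, grouped by channel class, with RE1-KO beside WT. Kcnip2 stands highest, and the points of both groups lie close together for the abundant genes.

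Summed by class, inward rectifiers were at 50.3 ± 2.72 TPM in RE1-KO and 54.0 ± 1.85 TPM in WT, and accessory subunits at 38.6 ± 0.847 TPM in RE1-KO and 41.6 ± 1.90 TPM in WT. Voltage-gated genes were at 55.7 ± 2.26 TPM in RE1-KO and 54.9 ± 2.44 TPM in WT, two-pore channels at 23.7 ± 1.44 TPM in RE1-KO and 22.7 ± 1.77 TPM in WT, and calcium- or sodium-activated channels at 4.02 ± 0.336 TPM in RE1-KO and 4.07 ± 0.172 TPM in WT (SD, n = 4 each). These class sums were not tested.

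Whether loss of RE1 changed any of these genes was asked with edgeR's quasi-likelihood test on the raw counts, with p-values adjusted by Benjamini-Hochberg over all 16551 genes that passed a low-count filter. Of the 61 genes, 49 passed the filter. By edgeR, 0 of the 49 were higher and 0 were lower in RE1-KO at an adjusted p under 0.05, where 0.278% of all genes tested were called higher, 0.508% lower and 0.785% in either direction. At an unadjusted p under 0.05 there were 9 of 49, or 18.4%, against 13.1% of all genes tested, and 4 of the 9 were higher and 5 lower in RE1-KO, where 6.14% of all genes tested were higher and 7.01% lower. DESeq2 called 1 higher, Kcnk2, and 1 lower, Kcnj2, where it called 112 higher and 184 lower over all 28347 genes it gave a p-value. By limma-voom, 0 were called in either direction, where 63 higher and 98 lower were called over all 16551 genes. For 5 of the 49, or 10.2%, the log2 CPM of RE1-KO and WT libraries stood wholly apart, against 7.16% of all genes tested. Of these 5, 2 were higher in RE1-KO (3.34% of all genes tested), Kcnk2 and Kcna1, and 3 were lower (3.82%), Kcnj2 and Kcnip2 among them. The median log2 fold change of the 49 was 0.018, with 26 positive and 23 negative, beside 0.00011 over all genes tested. The median absolute log2 fold change was 0.12 for the 49 and 0.09 for all genes. For 14 of the 49, the 95% interval of the change lay wholly within 1.2-fold in either direction. The same count was not taken over all genes tested, so it does not set these genes apart from others.

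**Figure D2:**
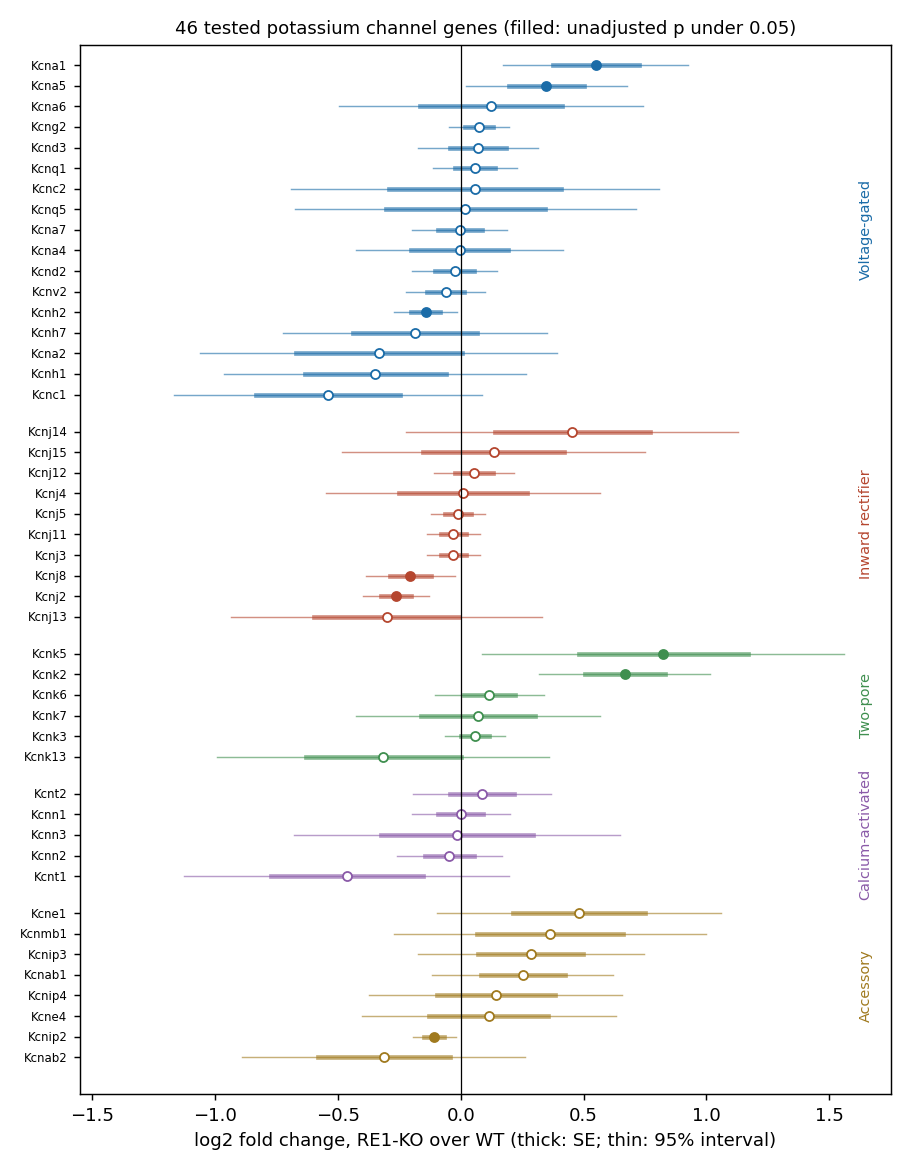
Log2 fold change, RE1-KO over WT, of 46 tested potassium channel genes, each with its SE (thick) and 95% interval (thin), grouped by class, filled where the unadjusted p was under 0.05. Intervals are narrow for abundant genes such as Kcnip2 and Kcnj11 and wide for rare ones such as Kcnk5, and 0 genes passed the adjusted threshold.

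Of the 10 inward rectifiers tested, 4 had a positive log2 fold change and 6 a negative one, and their median was -0.020. Kcnj2, the main subunit of the inward rectifier current of ventricular myocytes, had the smallest p of all 49 genes. Kcnj2 (chromosome 11, 111066164 to 111076821, plus strand, GRCm38) is shown by its promoter, 250 bases before to 50 bases after the gene start (RefSeq, GRCm38.p6, chr11:111065914-111066213, plus strand). The capitals mark a CACGTG E-box, the core of the elements bound by the clock factors CLOCK and ARNTL, which begins at position -84 from the gene start.
Kcnj2: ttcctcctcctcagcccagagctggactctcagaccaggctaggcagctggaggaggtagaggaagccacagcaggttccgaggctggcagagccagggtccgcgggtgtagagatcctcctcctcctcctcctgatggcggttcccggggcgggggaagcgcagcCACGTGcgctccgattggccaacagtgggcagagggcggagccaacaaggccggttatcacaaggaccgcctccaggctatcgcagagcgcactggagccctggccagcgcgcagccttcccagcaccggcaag

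Kcnj2 was at 979, 1236, 1088 and 1127 normalized counts in the RE1-KO libraries, against 1352, 1358, 1347 and 1282 in the WT libraries. Every RE1-KO library lay below every WT library. The log2 fold change was -0.26 (SE 0.06, 95% interval -0.40 to -0.13), a change of -16.7%, with an edgeR adjusted p of 0.0666. The two-sided exact permutation test over libraries gave p = 0.0286, the smallest it can give with 4 against 4. This value is fixed once the groups do not overlap, so it adds no further support. Kcnk2, Kcna1 and Kcnip2 gave the same value. Over the other settings the adjusted p of Kcnj2 ran between 0.00887 without the low-count filter and 0.645 with the clock index as a covariate, where the log2 fold change was -0.33. The clock index does not overlap between the groups, so in fits with it the index and the genotype cannot be told apart. In the authors' deposited table, whose log2 fold change is WT over RE1-KO, Kcnj2 stood at 0.27 with an adjusted p of 0.107.

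Kcnj12, the second subunit of that current, was at 489, 493, 421 and 424 normalized counts in RE1-KO and 402, 433, 450 and 480 in WT. The groups overlapped, with a log2 fold change of 0.05 (95% interval -0.11 to 0.22). Kcnj8, the pore subunit of ATP-sensitive channels in vascular smooth muscle and pericytes, was at 575, 660, 475 and 630 in RE1-KO and 700, 693, 641 and 667 in WT. Its log2 fold change was -0.20 (SE 0.08) with an edgeR adjusted p of 0.319, and RE1-KO replicate 2 lay within the WT range. Of 7 pericyte markers, 6 had a negative log2 fold change and 0 passed the test, with a summed level of 568 to 623 CPM in RE1-KO and 566 to 638 CPM in WT. Smooth muscle markers had a negative one in 5 of 6 and 0 passed, with 244 to 294 CPM in RE1-KO and 229 to 278 CPM in WT. Their part in the value of Kcnj8 was not tested.

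Kcnj11, the pore of the myocyte ATP-sensitive channel, was at 934, 932, 883 and 956 normalized counts in RE1-KO and 912, 915, 977 and 979 in WT, a log2 fold change of -0.03 (95% interval -0.14 to 0.08). Kcnj3 and Kcnj5 form the acetylcholine-gated channel, best known from atrial and nodal cells. Their log2 fold changes were -0.03 (95% interval -0.14 to 0.08) for Kcnj3 and -0.01 (95% interval -0.12 to 0.10) for Kcnj5. Kcnj3 shares exon bases with the antisense gene Gm26794, at 1621 of its 5215 bases. Without the counting strand, reads in those bases cannot be told from that gene's. Gm26794 had 198 raw counts in sum, against 6877 for Kcnj3. The rarer Kcnj13 and Kcnj14 were under 1 TPM, with log2 fold changes of -0.30 (95% interval -0.94 to 0.33) and 0.45 (95% interval -0.22 to 1.13). A share of their transcript sequence, 35.6% for Kcnj13 and 20.2% for Kcnj14, also occurs in other genes. For Kcnj13, the antisense gene Gigyf2 covers 623 of its 1270 exon bases. Gigyf2 had 9526 raw counts in sum, against 137 for Kcnj13, so many reads given to Kcnj13 may be of Gigyf2.

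**Figure D3:**
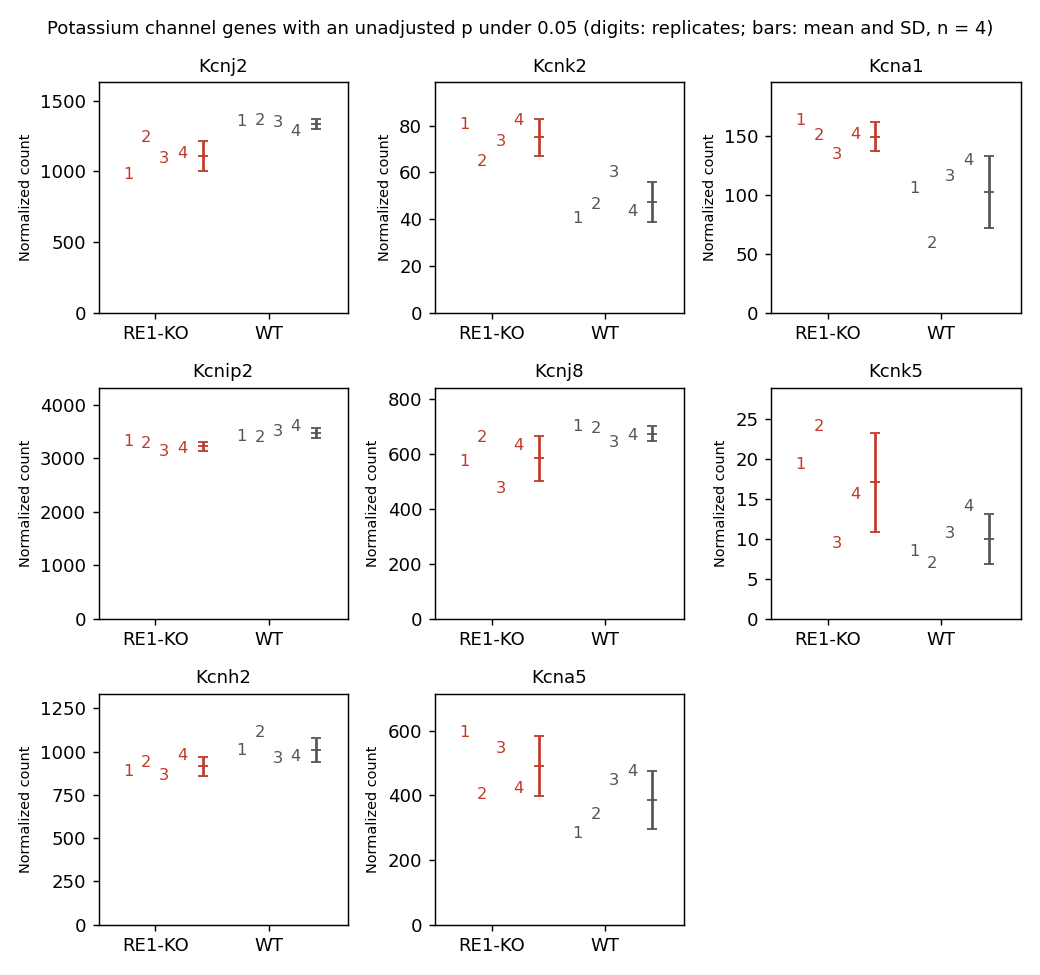
Normalized counts in each library (digits are replicate numbers, bars the mean and SD, n = 4) of 8 potassium channel genes with an unadjusted p under 0.05, RE1-KO left of WT. Kcnj2 lies lower in all RE1-KO libraries and Kcnk2 higher, whereas Kcna5 overlaps between the groups.

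Among the 6 two-pore channels tested, the log2 fold change was positive for 5 and its median was 0.09. Two-pore channels pass background potassium current. Kcnk2 (chromosome 1, 189207930 to 189402273, minus strand) encodes the mechanosensitive channel TREK-1. It was at 80.5, 64.7, 73.1 and 82.1 normalized counts in RE1-KO, against 40.4, 46.1, 59.9 and 43.3 in WT. Every RE1-KO library lay above every WT library. The log2 fold change was 0.67 (SE 0.16, 95% interval 0.32 to 1.02), or 1.59-fold higher in RE1-KO, with an edgeR adjusted p of 0.0718. Leaving out WT replicate 3, the highest WT library, took the edgeR adjusted p of Kcnk2 to 0.0374, and over all settings it ran between 0.0209 and 0.705. In the authors' deposited table, Kcnk2 was at -0.67 (WT over RE1-KO) with an adjusted p of 0.0291. It was the 1 gene under 0.05 among the 31 potassium channel genes that have an adjusted p there. The share of all genes under 0.05 there was not counted, so 1 of 31 has no background to be read against. An antisense gene, A430027H14Rik, covers 604 of the 4943 exon bases of Kcnk2, so part of its reads may be of that gene. With the mesothelial index as a covariate, the log2 fold change of Kcnk2 was 0.81.

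Kcnk3, the abundant two-pore channel TASK-1, was at 2128, 2268, 2148 and 1928 normalized counts in RE1-KO and 1935, 1950, 2077 and 2178 in WT. The ranges overlapped, with a log2 fold change of 0.06 (95% interval -0.06 to 0.18). Kcnk5, a pH-sensitive two-pore channel, was at 19.3, 24.1, 9.39 and 15.6 in RE1-KO and 8.39, 6.87, 10.6 and 14.1 in WT. Its log2 fold change was 0.82 (SE 0.34), with an edgeR adjusted p of 0.324 and overlapping groups. It was -0.29 with the clock index as a covariate, a fit with the limit given for Kcnj2. Kcnk6 and Kcnk7 gave log2 fold changes of 0.12 (95% interval -0.11 to 0.34) and 0.07 (95% interval -0.43 to 0.57). The promoter of Kcnk5 (chr14:20181733-20182032, minus strand) is printed because it also holds an E-box, in capitals, here at position 27 after the gene start.
Kcnk5: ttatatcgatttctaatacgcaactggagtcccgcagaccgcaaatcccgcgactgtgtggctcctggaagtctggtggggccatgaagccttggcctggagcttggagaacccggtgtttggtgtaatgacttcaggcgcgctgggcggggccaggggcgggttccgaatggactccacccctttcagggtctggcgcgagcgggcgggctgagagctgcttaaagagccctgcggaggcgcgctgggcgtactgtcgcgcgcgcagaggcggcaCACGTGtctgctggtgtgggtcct

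Voltage-gated genes were the largest class, with 20 tested, 10 positive and 10 negative log2 fold changes and a median of 0.0071. The subunits of the main ventricular currents came first. Kcnd2 was at 1252, 1315, 1072 and 1075 normalized counts in RE1-KO and 1336, 1194, 1215 and 1046 in WT. Its log2 fold change was -0.03, with a 95% interval of -0.20 to 0.15. Kcnd3 was at 383, 354, 363 and 404 in RE1-KO and 279, 342, 366 and 453 in WT, a log2 fold change of 0.07 (95% interval -0.18 to 0.32). The WT libraries of Kcnd3 spanned more than the RE1-KO libraries. The log2 fold change of Kcng2, an electrically silent modifier subunit, was 0.07 (95% interval -0.05 to 0.20). Kcna4, the slow transient outward subunit, was at 26.1 to 42.8 normalized counts in RE1-KO and 33.6 to 37.3 in WT.

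Kcna5, which carries part of the slowly inactivating current (chromosome 6, 126532551 to 126535412, minus strand), had the widest spread between RE1-KO libraries of the genes above 1 TPM. It was at 594, 404, 546 and 421 normalized counts in RE1-KO, against 282, 341, 444 and 473 in WT. RE1-KO replicates 1 and 3 were high and replicates 2 and 4 low, the same pairs in which those libraries resembled each other, and the groups overlapped. The log2 fold change was 0.35 (SE 0.15), with an edgeR adjusted p of 0.349. With the clock index as a covariate it was 0.16, a fit with the limit given for Kcnj2.

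Kcna1, its neighbour on chromosome 6 (126640397 to 126646384, minus strand), encodes a channel best known from axons. It was at 163, 150, 134 and 151 normalized counts in RE1-KO, against 105, 58.9, 116 and 129 in WT. All RE1-KO libraries lay above all WT libraries, though RE1-KO replicate 3 and WT replicate 4 nearly met. The log2 fold change was 0.55 (SE 0.18), with an edgeR adjusted p of 0.175. It was 0.24 with the mesothelial index as a covariate and 0.06 with the clock index, a fit in which index and genotype cannot be told apart. Of 6 tested Schwann cell and nerve markers, 4 had a positive log2 fold change and 0 passed. All 12 such markers, tested or not, summed to 12.5 to 14.7 CPM in RE1-KO and 10.6 to 14.5 CPM in WT. Of these, Chat and Snap25 were at 0 in all libraries. The part of these markers in the value of Kcna1 was not tested.

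Kcnh2, the rapid delayed rectifier known as hERG in humans, was at 884, 937, 860 and 979 in RE1-KO and 1005, 1110, 958 and 969 in WT. RE1-KO replicate 4 lay within the WT range, and the log2 fold change was -0.14 (SE 0.06) with an edgeR adjusted p of 0.330. Kcnq1, the slow delayed rectifier, had a log2 fold change of 0.06 (95% interval -0.11 to 0.23).

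**Figure D4:**
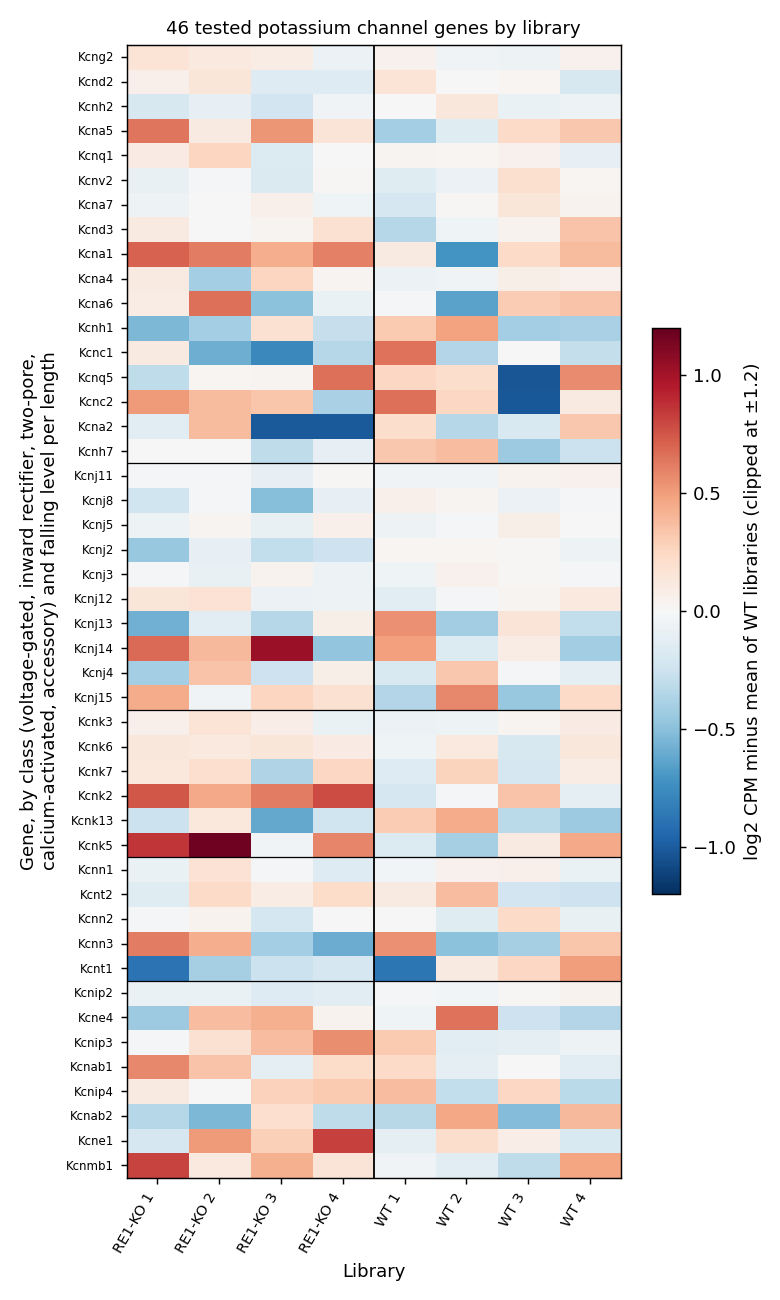
Log2 CPM of each library less the mean of the WT libraries for 46 tested potassium channel genes (colour clipped at ±1.2), RE1-KO columns left of WT columns, rows grouped by class. Kcnk2 is higher and Kcnj2 lower in all RE1-KO libraries, and Kcna5 is higher in RE1-KO replicates 1 and 3 than in replicates 2 and 4.

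Accessory subunits set the trafficking and gating of the pores. Of 8 tested, the log2 fold change was positive for 6 and its median was 0.20, while the most abundant one was negative. Kcnip2 (chromosome 19, 45791839 to 45816061, minus strand), the calcium-binding partner of Kcnd2 and Kcnd3, was at 3310, 3278, 3130 and 3185 normalized counts in RE1-KO, against 3410, 3394, 3505 and 3595 in WT. Every RE1-KO library was below every WT library by a small margin. The log2 fold change was -0.11 (SE 0.04, 95% interval -0.20 to -0.02), a change of -7.25%, with an edgeR adjusted p of 0.264. The promoter of Kcnip2 (chr19:45816014-45816313, minus strand), the most abundant of the 61 transcripts, held none of the motifs searched and so has no capitals.
Kcnip2: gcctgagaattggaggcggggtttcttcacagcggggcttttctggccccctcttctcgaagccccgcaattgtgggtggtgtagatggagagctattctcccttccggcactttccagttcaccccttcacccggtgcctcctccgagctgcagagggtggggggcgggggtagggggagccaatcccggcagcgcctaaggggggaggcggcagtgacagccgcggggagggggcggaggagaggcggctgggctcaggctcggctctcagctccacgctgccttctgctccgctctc

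Kcne1, the partner of Kcnq1, was at 12.9, 22.0, 18.8 and 28.1 normalized counts in RE1-KO and 13.7, 17.7, 16.0 and 13.0 in WT, a log2 fold change of 0.48 (95% interval -0.10 to 1.06). Kcnab1, a beta subunit of Kcna channels, had a log2 fold change of 0.25 (95% interval -0.12 to 0.62), and Kcnip3 had one of 0.28 (95% interval -0.18 to 0.75). Kcne4, a subunit that dampens several pores, had one of 0.11 (95% interval -0.40 to 0.63). Kcnab2, which lies on chromosome 4 at 4.40 Mb from Nppb, had a log2 fold change of -0.31 (95% interval -0.89 to 0.26). Kcnmb1, the smooth muscle subunit of the large-conductance channel, had 13.1 to 22.5 normalized counts in RE1-KO and 9.31 to 17.3 in WT.

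Calcium- and sodium-activated channels were low, and 0 of the 5 tested had an unadjusted p under 0.05. Kcnn1 and Kcnn2, small-conductance channels gated through calmodulin, were at 164 to 206 and 158 to 187 normalized counts in RE1-KO and at 173 to 190 and 166 to 216 in WT. Their log2 fold changes were -0.0008 (95% interval -0.20 to 0.20) for Kcnn1 and -0.05 (95% interval -0.26 to 0.17) for Kcnn2. Kcnn3 was at 21.8 to 53.1 in RE1-KO and 23.5 to 50.3 in WT. The sodium-activated channels Kcnt1 and Kcnt2 gave -0.46 (95% interval -1.13 to 0.20) and 0.09 (95% interval -0.19 to 0.37). The large-conductance pore gene Kcnma1 was among the 12 genes below the filter.

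Those 12 were Kcna3, Kcnab3, Kcnc4, Kcnd1, Kcne3, Kcng4, Kcnh4, Kcnj10, Kcnk1, Kcnk4, Kcnma1 and Kcnn4. They had 22 to 56 raw counts in sum and at most 13.1 normalized counts in any library, too few to test. Further tested genes were Kcna2, Kcna6, Kcna7, Kcnc1, Kcnc2, Kcnh1, Kcnh7, Kcnip4, Kcnj15, Kcnj4, Kcnk13, Kcnq5 and Kcnv2. Their log2 fold changes lay between -0.54 for Kcnc1 and 0.14 for Kcnip4, and the unadjusted edgeR p of Kcnc1, 0.0864, was the smallest among them.

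Promoter sequences were found for 45 of the 61 genes, as 61 promoters of 300 bases. Their median GC content was 58.3%, against 52.7% for all 32851 promoters. The E-box CACGTG, which reads the same on both strands, was in 7 of the 61, or 11.5%, against 7.15% of all promoters. The genes were Kcnab1, Kcne4, Kcnh4, Kcnj2, Kcnk5 and Kcnn4. Their log2 fold changes differed in sign: -0.26 for Kcnj2, 0.25 for Kcnab1, 0.11 for Kcne4 and 0.82 for Kcnk5. Kcnh4 and Kcnn4 were below the filter. A part of the E-box in these values was not tested. The nuclear receptor half-site AGGTCA was in 3.28% against 16.3% of all promoters, the TATA box TATAAA in 4.92% against 13.6%, and TTATGTAA, a form of the D-box, in 0 against 0.938%, each on both strands. No searched motif contains another. A match is a stretch of letters, not a measured site.

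Other genes of cardiac potassium handling and channel control were then set beside the channels. The list of 40 holds regulatory subunits and scaffolds of the channels, pacemaker channels, potassium transporters and transcription factors that control channel genes. Of the 35 tested, 1 rose and 1 fell by edgeR, where 0.278% of all genes tested were called higher and 0.508% lower. A positive log2 fold change was found for 19 of the 35, and the median was 0.02. The unadjusted edgeR p was under 0.05 for 5 of the 35, against 13.1% of all genes tested. For 3 of the 35, the log2 CPM of RE1-KO and WT libraries stood wholly apart, against 7.16% of all genes tested. Cav3, the caveolin of muscle membranes that holds channels in caveolae, was at 782, 818, 836 and 866 normalized counts in RE1-KO, against 685, 706, 687 and 718 in WT. It rose by 0.24 (log2 fold change, SE 0.05), and edgeR's adjusted p was 0.0444. Slc12a4, a potassium-chloride cotransporter, was at 800 to 920 normalized counts in the 4 RE1-KO libraries, against 937 to 1127 in the 4 WT libraries. It fell by 0.30 (log2 fold change, SE 0.06), and edgeR's adjusted p was 0.0489. The groups did not overlap for either gene. Both calls sat close to the threshold: leaving out 1 library took the adjusted p over it in 7 of 8 fits for Cav3 and in 5 of 8 for Slc12a4. Irx4, a ventricular transcription factor, had a log2 fold change of 0.19 (SE 0.07), with an edgeR adjusted p of 0.274.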

How the data were processed

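Left ventricular RNA of 4 RE1-KO and 4 WT libraries was sequenced, per the labels' protocols, from 900 ng of RNA with a stranded total RNA kit as paired-end reads of 125 bases. Per the submitters' processing notes, the tools were STAR and DESeq2 and the build was mm10. Not given in the sources used here is how reads were assigned to genes (program, strand, annotation). Deposited by the authors were raw counts per gene and normalized counts, a signal equal to the raw counts over 1 size factor per library. The authors' further deposited table holds log2 fold changes (WT over RE1-KO), p-values and adjusted p-values.

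In R 4.3.3, edgeR 4.0.16 tested the raw counts by quasi-likelihood (TMM, filterByExpr, group as the only term), after the code was tested on simulated data. P-values are two-sided and adjusted by Benjamini-Hochberg over all 16551 genes tested, at a threshold of 0.05. Standard errors are the log2 fold change over the root of F. TPM used exon lengths of GENCODE M21 (GRCm38, the assembly of mm10), and log2 CPM a prior count of 2. Total counts of 16778368 to 37133306 per library limit precision for genes under about 1 TPM. Replicate numbers did not pair the libraries.

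Genes named are, per class, up to 4 with the smallest p and up to 3 with the highest TPM, the subunits of the main ventricular currents, every gene past the threshold, and the 4 partner genes with the smallest p. A few tested genes are not reported here; the remaining ones are named with their range. Alternatives used DESeq2 1.42.0, limma 3.58.1, other scalings, filters and covariates, and leaving out each library. Members, gene lists and tests were chosen with earlier results of these data known. The deposited fold change and test differ from those computed here and are credited where printed.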

Additional observations from a re-analysis of the deposited data

Results flagged for a closer look

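Of 72 groups of 4 libraries examined for the named genes, 4 held a library far from the others, and chance gives about 1 in 20. Kcnj2 was at 1282 normalized counts in WT replicate 4, against 1347 to 1358 in the other WT libraries, and this lowest WT value still lay above the highest RE1-KO value of 1236. Kcnip3 was at 32.8 in WT replicate 1, against 23.5 to 24.9 in the other WT libraries. The partner gene Irx4 was at 550 normalized counts in RE1-KO replicate 3, against 643 to 657 in the other RE1-KO libraries. Nppa was at 628 in WT replicate 2, against 327 to 378 in the other WT libraries.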

How the results depend on the processing

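The counts of 0 potassium channel genes higher and 0 lower in RE1-KO became 2 higher (Kcna1 and Kcnk2) and 1 lower (Kcnj2) without the low-count filter, 1 higher (Kcnk2) and 1 lower (Kcnj2) with DESeq2 (adjusted p 0.0492 and 0.0154) and at a threshold of 0.10, and 0 higher and 1 lower (Kcnj2) with the percent of mitochondrial rRNA as a covariate (adjusted p 0.0476) and with robust dispersions (0.0416), a setting chosen after seeing the data. Leaving out each library gave 0 to 1 higher (Kcnk2, without WT replicate 3) and 0 lower. Partner genes, 1 higher and 1 lower, were 0 and 0 with limma on the deposited values, the replicate block, and the mitochondrial rRNA, clock or mesothelial covariate, and 0 to 1 each with a library left out. Replicate numbers were no pairing: same-numbered libraries correlated at -0.01, 0.02, -0.08 and -0.06. With the block, 0 potassium channel genes were called in either direction, where 59 higher and 87 lower were called over all genes. The median log2 fold change was -0.039 with the clock index, and ran between -0.016 and 0.053 with a library left out.

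Of 31 named potassium channel genes, 16 turned sign in at least 1 of 21 settings, none of them called, and the cause was not tested. With the clock index the log2 fold change was 0.17 for Kcna4, 0.19 for Kcnd2, -0.42 for Kcnd3, -0.14 for Kcnj12, 0.036 for Kcnj3, -0.064 for Kcnk3, -0.29 for Kcnk5, -0.22 for Kcnk7 and 0.010 for Kcnn1. With mitochondrial rRNA it was 0.22 for Kcna4, -0.19 for Kcne4, 0.0039 for Kcnj3, -0.26 for Kcnk7, 0.21 for Kcnn3, -0.022 for Kcnq1 and -0.17 for Kcnt2. With the mesothelial index it was 0.057 for Kcna4, -0.042 for Kcnd3, -0.053 for Kcng2, -0.11 for Kcnj12, 0.015 for Kcnj5 and -0.088 for Kcnk3. DESeq2 gave 0.0025 for Kcna4 and 0.0095 for Kcnn3, limma-voom 0.0094 for Kcnn1, limma on the deposited values 0.012 for Kcnn3 and the replicate block 0.051 for Kcnn3. With a library left out, the range was -0.11 to 0.15 for Kcna4, -0.088 to 0.034 for Kcnd2, -0.045 to 0.20 for Kcnd3, -0.037 to 0.015 for Kcnj5, -0.0026 to 0.20 for Kcnk7, -0.081 to 0.048 for Kcnn1, -0.091 to 0.027 for Kcnn2, -0.21 to 0.23 for Kcnn3 and -0.023 to 0.13 for Kcnq1. Counts over all genes were 46 higher and 84 lower in the test as reported, and 233 and 313 without the filter. DESeq2 gave 112 and 184, and limma on the deposited values 37 and 65. They were 125 and 213 at a threshold of 0.10, 28 and 34 with mitochondrial rRNA, and 62 and 114 with robust dispersions. With the clock index they were 0 and 2, and with the mesothelial index 0 and 3. Leaving out 1 library gave as few as 3 and 18, without RE1-KO replicate 2, and gave 76 and 135 without WT replicate 3. The clock index does not overlap between the groups, so in that fit it and the genotype cannot be told apart. Depth limits the genes under 1 TPM, whose intervals are wide.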
